A study of Mus musculus with 6 samples.

Results

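The genes described here encode histone variants and linker histones, measured in Hepa1-6, an established line derived from a mouse liver tumour. The 10 members were a fixed set of symbols (H2afx, H2afz, H2afv, H2afy, H2afj, H1f0, H1fx, Hist1h1c, Hist1h2bc and H3f3b), not picked by a threshold on these counts, and all 10 were found among 38828 genes and unmatched transcripts in the files. The 6 libraries came from cells transfected for 3 days, by lipofection, with siRNA against Renilla luciferase (Luc siRNA, the control, 3 libraries) or against Crebl2 (Crebl2 siRNA, 3 libraries). Crebl2 belongs to the basic leucine zipper proteins and resembles CREB. Both groups were grown in the same high-glucose medium with serum, differ in the labels only in the siRNA named, and were sequenced as stranded total RNA libraries, a kind made without selecting for poly(A) tails. Whether the numbered replicates are separate cultures is not in the labels; p-values here cover the spread between libraries, which may be technical.

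Nucleosomes wrap DNA around core histones H2A, H2B, H3 and H4, and a linker histone H1 binds where DNA enters and leaves. Canonical histone genes lie in clusters, are transcribed with DNA replication, and most of their mRNAs end in a stem-loop and not in a poly(A) tail. Variant genes stand alone, carry introns or a poly(A) signal in many cases, and are transcribed throughout the cell cycle, so that their products can replace canonical histones in cells that divide slowly. Some cluster genes, such as Hist1h1c and Hist1h2bc, also give polyadenylated mRNA.

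Total counts ran from 27082572 to 29158489 per library. Mitochondrial genes took 2.09 to 2.52% of counts in 5 libraries and 0.859% in Crebl2 siRNA replicate 2. Crebl2 mRNA had 3041 to 3248 counts in control libraries and 813 to 896 after knockdown, or -1.90 in log2 fold change (adjusted p = 2.83e-12 by edgeR). Of 12 hepatocyte and hepatoma markers, 9 had at least 10 counts, and their summed level in CPM (counts scaled to library size) was 1043 to 1127 in controls and 1015 to 1095 after knockdown, most of it Alb and Afp, while Apoa2, Serpina1a and Hnf4a had no count. Within that sum Afp was raised (mean CPM 278 to 356), and Trf (178 to 133) and Fgb (45.1 to 17.0) were lowered. Among markers of other cell types, endothelial genes summed to at most 0.396 CPM and immune genes to at most 1.36 CPM, with Tek and Ptprc at 0. The fibroblast list lay at 176 to 182 CPM in controls and 119 to 131 CPM after knockdown, nearly all of it decorin (Dcn), with Col3a1 and Pdgfrb at 0. The part of these differences in the results was not tested.

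Of the 10 members, 9 had enough counts for the test and 3 rose after Crebl2 knockdown: Hist1h2bc, H1fx and Hist1h1c. None was lowered, and 6 did not pass. Over all 11616 genes tested, 18.8% were raised, 20.1% lowered and 38.9% called in either direction at an adjusted p under 0.05 by edgeR (2180 and 2338 genes; 2741 and 1920 with library size as the only scaling). The 3 raised of 9 are to be read against these shares. The median log2 fold change of the 9 was 0.05, against 0.01 for all genes tested. Control and knockdown libraries did not overlap in CPM for 4 members, the 3 raised genes and H2afj, where 48.8% of all tested genes showed no overlap.

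**Figure D1:**
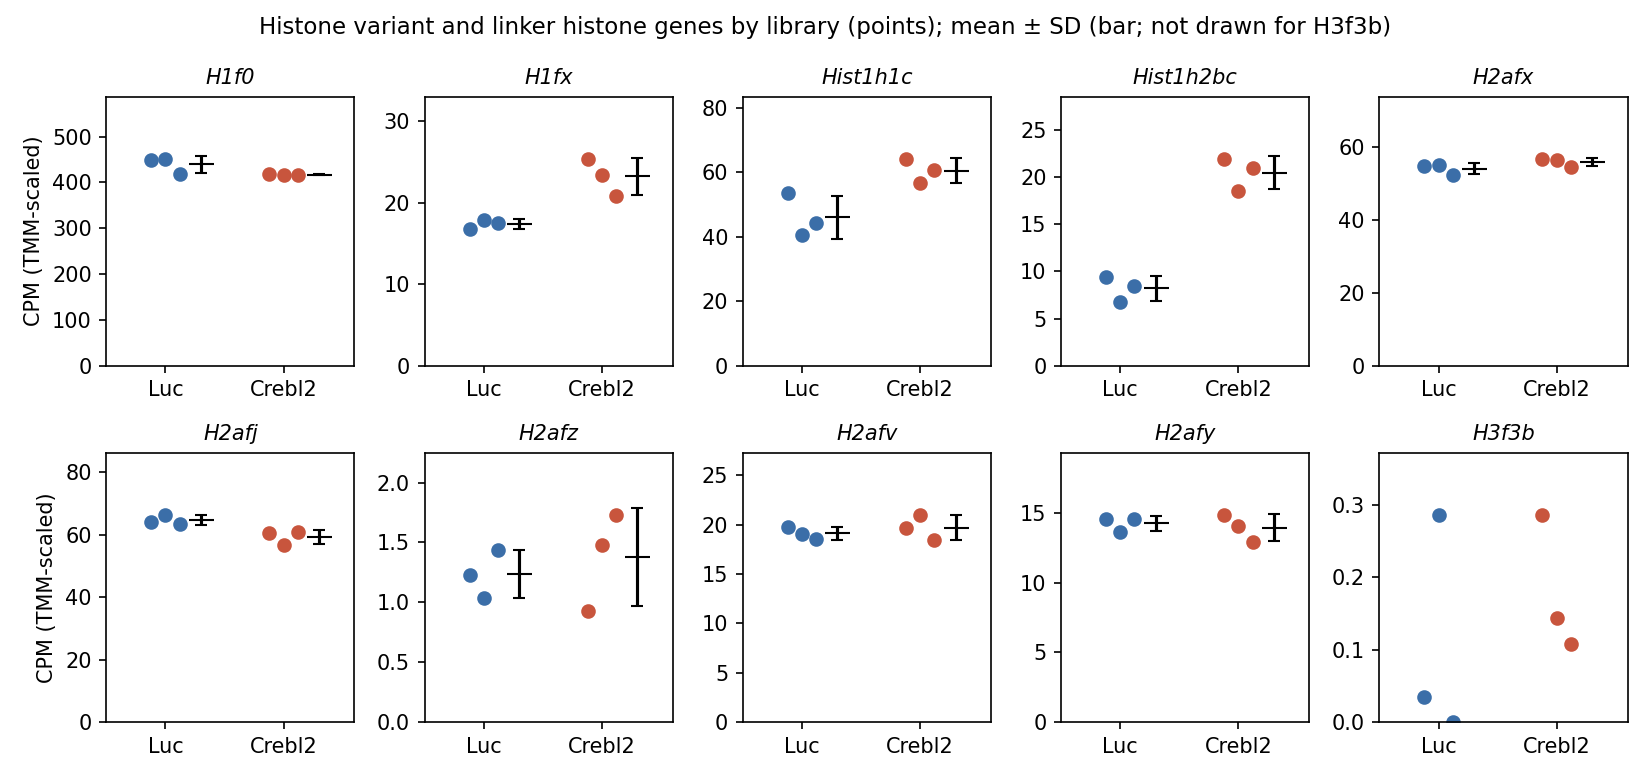
CPM, scaled by the trimmed mean of M values (TMM), of each member in the 3 Luc siRNA libraries (blue) and the 3 Crebl2 siRNA libraries (red), with mean ± SD beside the points except for H3f3b, which had 24 counts in all. Every knockdown library lies above every control library for H1fx, Hist1h1c and Hist1h2bc, and below for H2afj.

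The deposited values are counts per transcript, and a read appears to be counted only where a single transcript covers it: the rows that share every exonic base with another row took 0.0235% of counts. The 10 members have 16 rows. The 5 rows with no unique base, in H2afj, H2afv, H2afz and H3f3b, held 0 counts in every library, and 9 members were counted on 1 row alone. Unique bases therefore decide how much of a gene was seen. H1f0, Hist1h1c and Hist1h2bc had all of their 2055, 1560 and 1156 exonic bases to themselves. H2afx had 1243 of 1384, H1fx 980 of 1217, H2afj 1254 of 1831 and H2afv 1114 of 1633. H2afz had 220 of 1069 and H3f3b 521 of 2514. Of 10 member rows tested singly, 3 were raised and 0 lowered, where 37.4% of 12542 rows were called in either direction.

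Because lengths differ, levels were compared between genes as CPM per 1000 unique bases. H1f0 stood highest in controls at 214 ± 9.01 (SD, n = 3). Then came the larger H2afy row at 54.3 ± 2.05 and H2afj at 51.5 ± 1.26, whose ranges of mean ± SD overlap, and H2afx at 43.5 ± 1.15. The smaller H2afy row at 35.2 ± 3.57 and Hist1h1c at 29.5 ± 4.27 also overlapped in that range, as did H1fx at 17.7 ± 0.604 and H2afv at 17.2 ± 0.565. Hist1h2bc stood at 7.10 ± 1.16. H2afz gave 5.61 ± 0.909, but most of its row is copied in other genes, and H3f3b had 24 counts in all, so neither is placed in the order. After knockdown Hist1h2bc stood at 17.7 ± 1.54, beside H2afv at 17.7 ± 1.12. These levels do not correct for bases that other genes copy, which are given below for 5 of the genes. Nor do they correct for reads that cross the edge of a unique stretch. The larger and smaller H2afy rows have 103 and 42 windows of 50 bases wholly in unique sequence, against 1107 for H2afj and 1145 for H2afx. How reads at such edges were counted is not known, so the place of the H2afy rows in this order is uncertain.

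**Figure D2:**
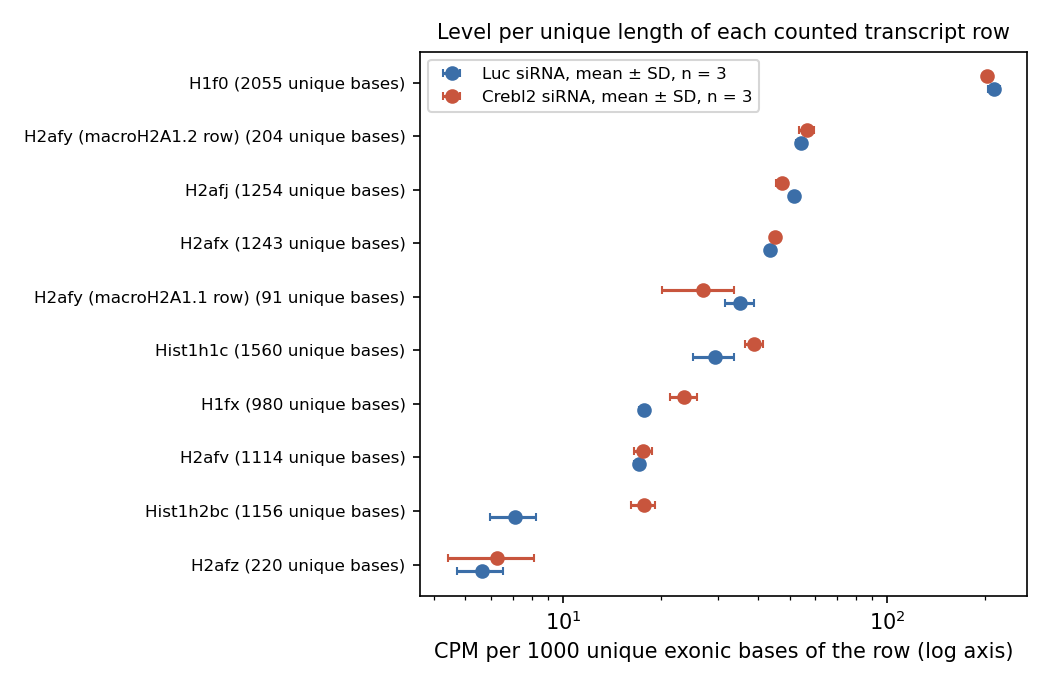
CPM per 1000 unique exonic bases of each counted row (log axis), mean ± SD of 3 libraries per group. H1f0 is highest in both groups, and Hist1h2bc moves from 7.10 to 17.7; H3f3b is left out because of its few counts.

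The linker histones included the member of highest level, H1f0, which did not pass the test, and 2 of the 3 that rose. H1f0 encodes H1.0, the replacement linker histone that accumulates in differentiated and slowly dividing cells. It is a gene of 1 exon on chromosome 15 (79028450 to 79030504 in GRCm38, plus strand), and 114 of its 2006 windows of 50 bases occur in a transcript of another gene. Control libraries held 12780, 12607 and 11330 counts and knockdown libraries 11698, 11552 and 11544. The groups overlapped, since the third control library lies between the knockdown libraries in CPM (418 in that control, 416 to 419 after knockdown). The log2 fold change was -0.08 (SE 0.0470, adjusted p = 0.226 by edgeR), with a 95% interval of -0.17 to 0.02. Any change in H1f0 larger than a fold of 0.886 downward or 1.02 upward therefore lies outside the interval.

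H1fx encodes H1.10 (H1x), a divergent linker histone expressed outside S phase from a gene without introns, on the minus strand of chromosome 6 (87980421 to 87981637). Its counts were 477, 499 and 475 in controls and 709, 649 and 578 after knockdown, so every knockdown library was higher. Expression went from 17.4 ± 0.592 to 23.2 ± 2.28 CPM (SD, n = 3 each), or 0.42 in log2 fold change (SE 0.0825, adjusted p = 0.000746 by edgeR). The bases shared with Gm47286 and, on the other strand, with Gm5577 are outside the 980 unique bases, and none of the 882 windows of 50 bases that lie wholly in unique sequence occurs in a transcript of another gene.

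Hist1h1c encodes H1.2, one of the main somatic linker histones of the chromosome 13 cluster (plus strand, 23738808 to 23740367). Control libraries held 1525, 1131 and 1200 counts and knockdown libraries 1795, 1570 and 1685. The first control library was the highest of its group at 53.5 CPM, against 40.5 and 44.3 CPM, and the lowest knockdown library had 56.6 CPM. The rise was from 46.1 ± 6.66 to 60.5 ± 3.86 CPM (SD, n = 3 each), 0.39 in log2 fold change (SE 0.0838, adjusted p = 0.00138 by edgeR). Of its 1511 windows of 50 bases, 129 occur also in Hist1h1d or Hist1h1e, and reads there cannot be assigned by sequence alone.

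The promoter of Hist1h1c is shown because it held matches to the motifs searched, including that of linker histone promoters. The 250 bases before its RefSeq start (GRCm38.p6, where the gene is named H1f2), chr13:23738557-23738806 on the plus strand, are printed with matches to searched motifs in capitals.

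Hist1h1c upstream region: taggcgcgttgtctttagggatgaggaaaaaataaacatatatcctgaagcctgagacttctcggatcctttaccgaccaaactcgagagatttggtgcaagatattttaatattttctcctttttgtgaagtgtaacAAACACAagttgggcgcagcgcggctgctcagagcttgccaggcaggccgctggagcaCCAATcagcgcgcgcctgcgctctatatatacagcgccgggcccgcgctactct

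The capitals are AAACACA, the letters of the AC box known from linker histone promoters, starting 112 bases before the start, and CCAAT, starting 54 bases before it. Each motif was searched on both strands in RefSeq windows of 300 bases, 250 before to 50 after a start. AAACACA was in 7.18% of 32851 such windows and CCAAT in 37.4%. RefSeq starts can differ from those of the counted rows: in the window of H1fx, 95 of the 300 bases lie before the start of its row. That window held neither motif, nor TATAAA (13.6% of windows) nor TGACGTCA, the cAMP response element (1.79%). TGACGTCA was in none of the 8 member windows matched, of 10 members, and AAACACA in that of Hist1h1c alone. H2afx and the raised gene Hist1h2bc had no matched window and were not searched. The window of H1f0 ends at 79028261, before its counted row starts at 79028450. That of H3f3b spans 116024455 to 116024754, while its counted row starts at 116027962 on the minus strand. The bases just before these row starts were not searched. CCAAT was not particular to Hist1h1c, whose window held it 1 time. It occurred 3 times each in the windows of H2afz and H2afj and 4 times each in those of H2afv and H3f3b, members not called raised. TATAAA was in the window of H3f3b alone. A match is a description of letters, not of a bound site.

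The other linker histone genes of the cluster were sparsely counted. Hist1h1e (H1.4) had 4, 2 and 2 counts in controls and 15, 15 and 12 after knockdown, a ratio of 5.26 after scaling (95% exact binomial interval 2.44 to 13.0, counting error only). It passed the filter on low counts through the 3 knockdown libraries and 0 control libraries, so its call is not independent of the filter. The edgeR fit with no filter, on the same counts, gave a log2 fold change of 2.34, which is no separate support. A filter of 1 CPM leaves Hist1h1e untested. Hist1h1d (H1.3) had 10, 7 and 10 counts against 21, 18 and 18. It passed through 3 knockdown libraries and 1 control library, had 1.06 in the edgeR fit with no filter, and was likewise untested with 1 CPM. Hist1h1b (H1.5) had 0, 0 and 2 counts against 5, 6 and 6, which is too few for the test. Hist1h1a (2, 4 and 2 against 3, 2 and 2) and the testis gene Hist1h1t (0, 1 and 3 against 5, 1 and 5) overlapped between groups. Hist1h1a, Hist1h1b and Hist1h1t are given for completeness of the H1 family, a choice made after their values were seen.

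**Figure D3:**
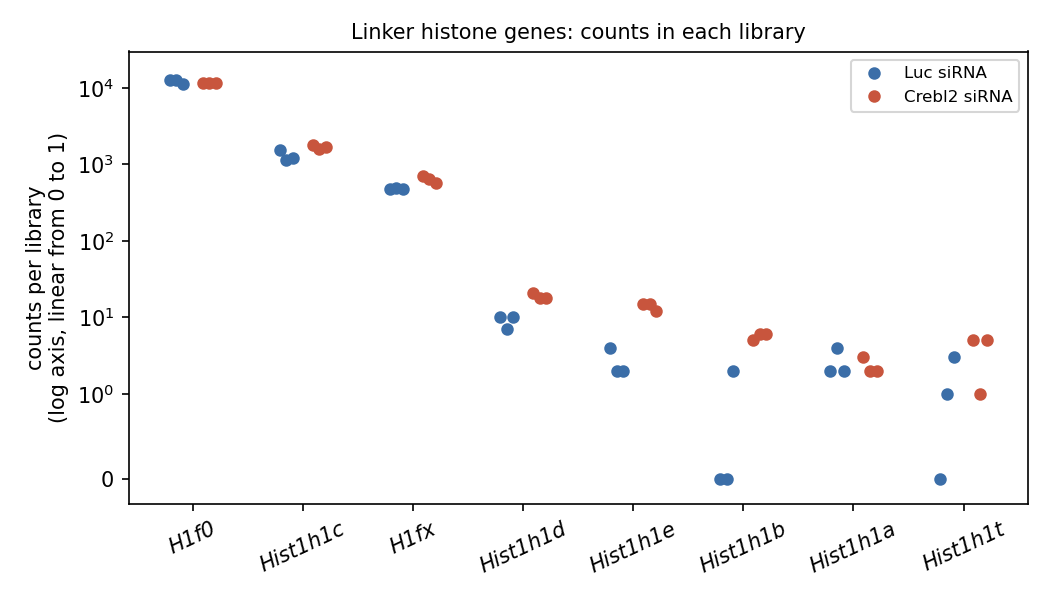
Counts of linker histone genes in each library (log axis, linear between 0 and 1), Luc siRNA in blue and Crebl2 siRNA in red. H1f0 overlaps between groups, while Hist1h1c, H1fx, Hist1h1d, Hist1h1e and Hist1h1b are higher in every knockdown library.

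Hist1h2bc showed the steepest change of the members. It encodes a canonical H2B of the chromosome 13 cluster (plus strand, 23684199 to 23692908). Its counts were 269, 189 and 228 in controls and 614, 514 and 582 after knockdown, with the lowest knockdown library far above the highest control. Expression went from 8.21 ± 1.34 to 20.5 ± 1.79 CPM (SD, n = 3 each), a 2.50-fold rise (95% interval 2.12 to 2.93; log2 fold change 1.32, SE 0.110, adjusted p = 1.14e-07 by edgeR). Of all tested genes, 1.09% had a higher log2 fold change.

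The Hist1h2bc row is unusual among cluster genes in having 2 exons. The first holds the whole reading frame (423 bases, 378 of them coding). The second, 733 noncoding bases from 23692176 to 23692908, is the far end of a spliced form. Of the 374 windows of 50 bases in the first exon, 325 occur in a transcript of another gene, against 14 of 684 in the second. A row count does not say on which exon the reads fell, so whether the spliced form, the short form or both rose was not tested. Hist2h2be, another H2B gene of a replication-dependent cluster, moved the other way: 1023, 958 and 962 counts in controls against 807, 783 and 771 after knockdown (log2 fold change -0.32, SE 0.0625, adjusted p = 0.000744 by edgeR).

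The H2A variants H2afx, H2afj, H2afz and H2afv did not pass the test. H2afx encodes H2A.X, whose phosphorylated form marks double-strand breaks, and lies on chromosome 9 (44334694 to 44336077, plus strand). It had 1559, 1537 and 1421 counts in controls and 1587, 1563 and 1515 after knockdown. The groups overlapped and the log2 fold change was 0.05 (SE 0.0553, adjusted p = 0.524 by edgeR; 95% interval -0.07 to 0.17).

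H2afj encodes H2A.J, a variant that differs from canonical H2A mainly at its C-terminal end and accumulates in senescent cells. Its row lies on chromosome 6 (136808244 to 136810074, plus strand), and 12 of its 387 coding bases are unique, so the counts come almost wholly from noncoding sequence. It had 1830, 1852 and 1716 counts in controls and 1692, 1577 and 1685 after knockdown. In CPM every knockdown library (56.8 to 60.8) was below every control (63.3 to 66.4), but the log2 fold change of -0.12 (SE 0.0556) had an adjusted p by edgeR of 0.0944.

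H2afz and H2afv encode H2A.Z.1 and H2A.Z.2, near-identical variants placed at promoters by exchange complexes. H2afv (chromosome 11, 6427229 to 6444443, minus strand) had 564, 532 and 502 counts against 549, 583 and 513, which overlap (log2 fold change 0.04, SE 0.0765, adjusted p = 0.689 by edgeR). H2afz (chromosome 3, 137864487 to 137866922, plus strand) had only 35, 29 and 39 counts against 26, 41 and 48. Its 95% interval for the log2 fold change, -0.36 to 0.68, is the widest of the 9 and would not show a moderate change in either direction. Of the 1020 windows of 50 bases in its row, 710 occur in transcripts of other genes, and 71 windows are both unique to the row and free of such copies. The low count of H2afz thus covers a small part of the transcript and is no measure of its abundance.

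H2afy encodes macroH2A1, an H2A variant with a large macro domain, in splice forms that differ by 1 of a pair of alternative exons in that domain. MacroH2A1.1 can bind ADP-ribose metabolites through its macro domain and macroH2A1.2 cannot. The summed gene had a log2 fold change of -0.03 (SE 0.0855, adjusted p = 0.808 by edgeR), and of 0.02 with library size as the only scaling. Its counted rows correspond to the splice forms: the row that codes for 369 amino acids (macroH2A1.1) has a sixth exon of 91 bases, and the row that codes for 372 (macroH2A1.2) a sixth exon of 100 bases. These exons are shown because they hold all unique coding bases of the counted rows, 91 and 100, and the only unique bases of the macroH2A1.1 row. Both are on the minus strand (GRCm38, from the GENCODE M21 transcripts), at chr13:56088252-56088342 and chr13:56089758-56089857. Capitals mark bases that are identical in a global alignment of the pair, 48 in all, or 52.7% of the shorter exon.

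macroH2A1.1 exon: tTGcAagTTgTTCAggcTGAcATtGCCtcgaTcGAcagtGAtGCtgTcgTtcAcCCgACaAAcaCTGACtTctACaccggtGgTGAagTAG
macroH2A1.2 exon: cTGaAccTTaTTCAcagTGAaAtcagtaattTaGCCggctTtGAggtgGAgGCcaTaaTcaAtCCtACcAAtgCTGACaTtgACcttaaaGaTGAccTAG

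The macroH2A1.2 row has 204 unique bases, since 101 bases at the start of its first exon and 3 at its end add to the exon of 100. It held 315, 298 and 312 counts in controls and 342, 309 and 310 after knockdown, which overlap in CPM (log2 fold change 0.06, SE 0.0898, adjusted p = 0.674 by edgeR). The macroH2A1.1 row held 102, 83 and 83 counts against 74, 82 and 49. In CPM its groups did not overlap, but the log2 fold change of -0.38 (SE 0.182) did not pass the test among transcript rows (adjusted p = 0.108 by edgeR); without knockdown library 3 it was -0.20.

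As a share of the counts on both rows, macroH2A1.1 made up 24.46, 21.78 and 21.01% in controls and 17.79, 20.97 and 13.65% in knockdown libraries 1, 2 and 3. The group means were 22.4 ± 1.81% and 17.5 ± 3.67% (SD, n = 3 each), a difference of -4.95 percentage points. By the two-sided exact permutation test p was 0.1, the lowest value this design can reach. The groups nearly touch, at 21.01% in the third control (95% exact binomial interval 17.1 to 25.4%, counting error only) and 20.97% in knockdown library 2 (17.0 to 25.3%). Without knockdown library 3 the difference was -3.04 points. The share is of row counts, which come from different numbers of unique bases. On the macroH2A1.2 row, 101 unique bases of the first exon and 3 at the row's end lie outside the alternative exon. Reads there do not tell which alternative exon a transcript carries. The share is therefore neither that of the splice forms nor that of the protein forms.

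**Figure D4:**
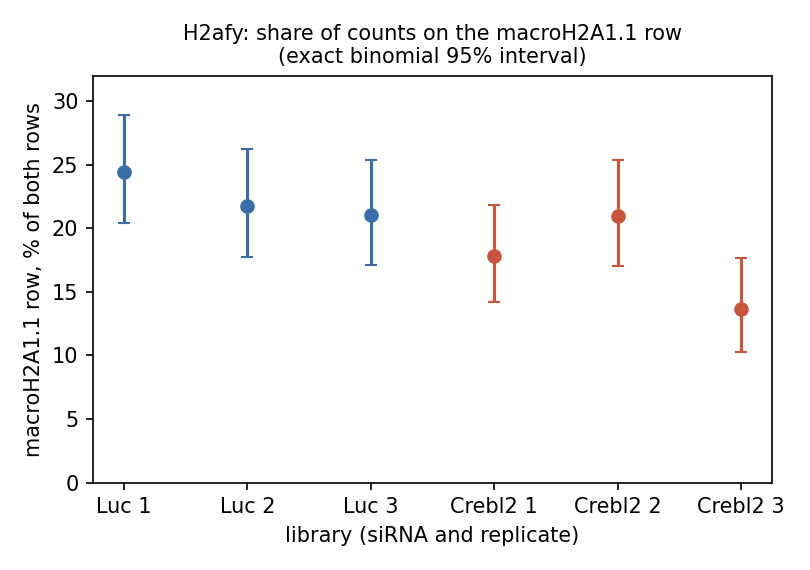
Share of H2afy counts on the macroH2A1.1 row in each library, with 95% exact binomial intervals. The control libraries lie at 21.01 to 24.46% and the knockdown libraries at 13.65 to 20.97%; the interval of knockdown library 3 (10.3 to 17.6%) lies below those of controls 1 and 2, and the other pairs of intervals overlap.

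H3f3b, one of the genes for the replacement histone H3.3, could not be followed. Its gene on chromosome 11 has a row of 4 exons with no unique base, which held 0 counts, and a longer row (116021912 to 116027962, minus strand) whose 521 unique bases are all noncoding. That row held 1, 8 and 0 counts in controls and 8, 4 and 3 after knockdown, below the filter. The scaled ratio of 1.67 has a 95% exact binomial interval of 0.684 to 4.32. H3f3a, the other H3.3 gene, had 28, 40 and 34 counts against 29, 32 and 22 and did not pass either (log2 fold change -0.30, SE 0.243, adjusted p = 0.366 by edgeR).

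Other cluster histone genes were taken by the start of their symbols, and other variants from a fixed list. Of the 63 other protein-coding genes in the Hist1 to Hist4 clusters, 15 had no count and 38 had under 10 counts over all libraries. Whether these libraries recovered mRNAs without a poly(A) tail was not tested. The low counts are therefore no measure of how strongly these genes are expressed. Only 7 passed the filter, of which 3 were called raised and 1 lowered, and the count of 3 is no result about the clusters, since all 3 met the filter's minimum in the 3 knockdown libraries but in at most 1 control library. They are Hist1h1e, Hist1h1d and the H4 gene Hist2h4. Hist2h4 had 7, 4 and 5 counts in controls and 46, 24 and 24 after knockdown, a scaled ratio of 5.88 (95% exact binomial interval 3.44 to 10.7, counting error only). The edgeR fit with no filter, on the same counts, gave it a log2 fold change of 2.52, which is no separate support. With 1 CPM 0 of these genes were raised. The lowered gene was Hist2h2be, which met the minimum in all 6 libraries. In sum these 63 genes gave 55.0 to 55.9 CPM in controls and 47.6 to 49.9 CPM after knockdown, and Hist2h2be made up most of it at 35.2 and 28.3 CPM.

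Among other variants, 3 of 11 in the files were tested and 2 rose. H2afy2 encodes macroH2A2, the second macroH2A. It had 38, 55 and 66 counts in controls and 116, 96 and 111 after knockdown, with no overlap (1.91 to 3.87 mean CPM; log2 fold change 1.02, SE 0.188, adjusted p = 0.00041 by edgeR). Cenpa, the centromeric H3 variant, rose from 60.6 to 75.3 mean CPM (log2 fold change 0.31, SE 0.0589, adjusted p = 0.000486 by edgeR).

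**Figure D5:**
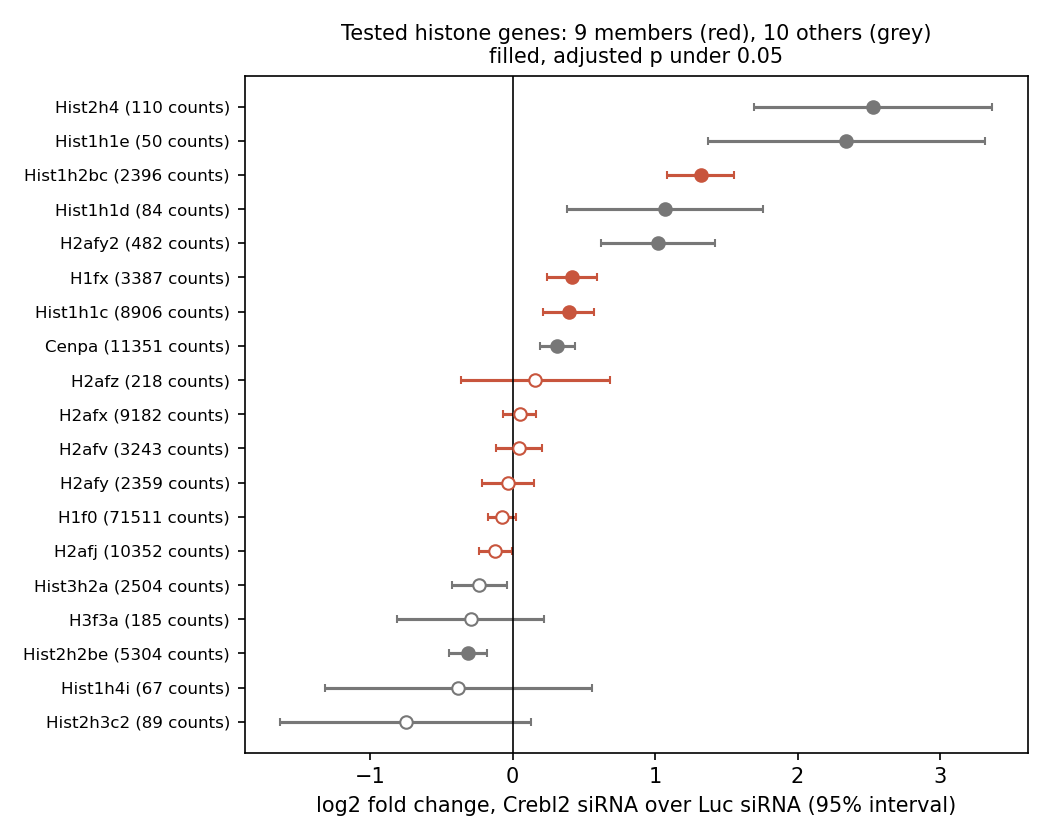
Log2 fold change (Crebl2 siRNA over Luc siRNA) with its 95% interval for all tested histone genes, members in red and other histone genes in grey, filled where the edgeR adjusted p is under 0.05. Counts over the 6 libraries stand beside each symbol; the steepest values, 2.53 for Hist2h4 and 2.34 for Hist1h1e, rest on 110 and 50 counts, and these genes and Hist1h1d passed the filter through the knockdown libraries.

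Genes that handle histones were also taken from fixed lists and read against the 18.8% raised and 20.1% lowered of all genes. Of 28 tested histone chaperones and assembly factors, 14 rose and 1 was lowered, with a median log2 fold change of 0.15. Nasp, a chaperone of H3-H4 that also binds linker histones, rose most clearly, from 1215, 1272 and 1216 counts to 2117, 2188 and 2158 (log2 fold change 0.80, SE 0.0556, adjusted p = 1.35e-08 by edgeR). The H3-H4 co-chaperone Dnajc9 (log2 fold change 0.39) and the replication-coupled chaperone Asf1b (0.40) rose too, and Spty2d1 was lowered (-0.31). Without control replicate 3 the number raised was 9.

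Of 22 tested genes of the SRCAP, p400 and INO80 complexes and related factors, which exchange H2A.Z, 4 rose and 1 was lowered, with a median log2 fold change of 0.08. The share raised is close to the 18.8% of all tested genes. Srcap and Ep400, with 39 and 17 counts over all libraries, were not tested. The raised genes included the subunits Dmap1 (log2 fold change 0.25), Mrgbp (0.28) and Actl6a (0.20). The lowered gene was Actr6 (-0.30), an H2A.Z-loading subunit of SRCAP. Without knockdown replicate 3 the number raised was 7. Of 19 tested genes of histone mRNA 3' end processing and turnover, 5 rose and 1 was lowered (median 0.04). Those raised included the Sm proteins Snrpg (0.40) and Snrpd3 (0.19), which serve spliceosomal particles as well, and the helicase Upf1 (0.20), while Lsm11, a U7-specific subunit, was lowered (-0.20). Without knockdown replicate 1 the number lowered was 2.

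Of 17 tested genes of H2A.X signalling, 7 rose and 0 were lowered, with a median log2 fold change of 0.11. The list holds genes that write, read or remove H2A.X phosphorylation and other factors of the same response. H2afx itself had 0.05 and did not pass. The smallest p belonged to Brca1 (log2 fold change 0.65), the kinase Prkdc (0.67), the reader Mdc1 (0.27) and the break sensor Nbn (0.29), all with adjusted p by edgeR of 0.00077 or lower. Without knockdown replicate 3 this list had 3 lowered genes. Under the alternatives the number raised ran from 5 to 9. It was 5 with no filter, with the replicate block, and without control replicate 2, control replicate 3 or knockdown replicate 2, and 9 with library size only.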

How the data were processed

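RNA was sequenced from 6 libraries, 3 per siRNA. The authors deposited read counts that were not normalized, in 58611 rows of Ensembl transcripts for each library. Trim Galore, TopHat and HTSeq and the builds mm9 and GRCm38 appear in the submitters' processing notes without versions or settings; whether counting used strand was not given in the sources used here. GENCODE M21 (GRCm38) matched 58264 rows, and counts were summed per gene. The rest took up to 0.0497% of a library's counts. Unique bases are exonic bases covered by no other deposited transcript, on either strand. Copies were windows of 50 bases found in M21 transcripts of other genes; read length was not given there either.

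Genes were tested with edgeR 4.0.16 (R 4.3.3) by its quasi-likelihood test, two-sided, with TMM scaling, filterByExpr and Benjamini-Hochberg adjustment over all genes; a call is an adjusted p under 0.05. SE was derived from the fold change and its F statistic. DESeq2 1.42.0 and limma 3.58.1 were alternatives. The fit was tested on simulated data. Replicates differed by more than sampling noise. Members and lists were chosen with earlier results of these data known. Named genes were Crebl2, the members, and up to 4 called genes of smallest p per list, or else the 1 with the smallest p; others are said to be added or are named for comparison.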

Additional observations from a re-analysis of the deposited data

How the results depend on the processing

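Under 16 alternatives (other tests, scalings, filters, row choices, a replicate block and leaving out each library) the members raised stayed at 3 and those lowered at 0. Log2 fold changes ran from 1.196 to 1.431 for Hist1h2bc, from 0.35 to 0.49 for H1fx and from 0.31 to 0.51 for Hist1h1c, with all adjusted p under the threshold; H2afj was called under none (adjusted p from 0.0545 to 0.376). Signs turned for uncalled members only: H2afy had 0.017 with library size only, 0.057 with rows of at least 100 unique bases, 0.058 with the dominant row and -0.078 to 0.021 when a library was left out (0.021 without knockdown replicate 3), and H2afz -0.036 to 0.379 when a library was left out (-0.036 without the same library). Other cluster histone genes lowered numbered 2 with limma-voom, with no filter and with rows of at least 100 unique bases, and 1 to 2 when a library was left out; those raised numbered 0 with a filter of 1 CPM, which removes the low-count genes. Genes lowered over the fixed lists numbered 3 to 6 when a library was left out, against 3. Of called genes, 58.8% were raised with library size only, against 48.3%.

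In the labels, same-numbered libraries share only a number. Correlations of their deviations ran from -0.13 to -0.04, and 0 of 6 libraries correlated best with their own number. With 3 libraries per group, these values cannot show whether same-numbered libraries were prepared together. The replicate block gave 1882 genes raised and 2101 lowered, against 2180 and 2338, and 3 members raised. Few counts limit the precision for H2afz, H3f3b and most cluster genes; the counted rows of H2afz and H3f3b have 220 and 521 unique bases.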
